A study of Mus musculus with 6 samples.

Results

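The nuclear genes for the subunits of the 5 oxidative phosphorylation complexes were compared between PV-positive and Drd2-positive neurons of the mouse medial mammillary nucleus. Members were taken by gene name: those starting with Ndufa (but not Ndufaf), Ndufb, Ndufc, Ndufs or Ndufv for complex I, Sdha to Sdhd for complex II, Uqcr and Cyc1 for complex III, Cox4 to Cox8 for complex IV and Atp5 for complex V, without names marked as pseudogenes by -ps. This gave 93 gene identifiers of 55414 in the table, with 43 in complex I, 4 in II, 9 in III, 19 in IV and 18 in V. A total of 85 passed the filter on low values (1 FPKM or more in 3 or more libraries) and entered the test, 40, 4, 9, 15 and 17 of them by complex.

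The 6 libraries came from male mice and fall into 3 with the genotype label PV-positive (replicates 6, 7 and 8) and 3 labelled Drd2-positive (replicates 1, 2 and 3). PV is the calcium-binding protein parvalbumin and Drd2 the D2 dopamine receptor. All 6 were made alike: slices were digested with papain for 30 min, fluorescent cells were drawn into glass electrodes, and SMARTer libraries were built with 1.3 ug of total RNA given as input. The alleles behind the fluorescence, and the number of cells and mice in each library, are not stated in the labels used here, so p-values measure the spread between these libraries. Values are FPKM, fragments per kilobase of a gene's merged exons and per 1e6 fragments. Pvalb was listed at 349, 482 and 563 against 10.4, 22.5 and 99.5 FPKM (PV against Drd2, replicates in the order above) and Drd2 at 0.0132, 0 and 0 against 42.7, 55.0 and 7.74 FPKM, so the groups did not overlap in either, although neither passed the test over all genes (limma adjusted p = 0.0501 for both).

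Oxidative phosphorylation passes electrons from NADH (complex I) and succinate (complex II) through ubiquinone, complex III and cytochrome c to oxygen at complex IV, and the proton gradient so made drives ATP synthase, complex V. Each complex but II mixes subunits encoded in mitochondrial DNA with nuclear ones, and each large complex has catalytic core subunits surrounded by small accessory subunits with roles in assembly and stability. Parvalbumin neurons elsewhere in the brain are known for fast firing and many mitochondria.

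The promoters of the 3 c-ring genes and of Atp5k are shown here, because the c-ring genes code for the same mature protein but differed in their values between the groups, and Atp5k had the largest fold in complex V. The 120 bases before the RefSeq start of each gene (GRCm38.p6, minus strand, 5′ to 3′) are, with the palindromic match to the motif of the transcription factor NRF1 in capitals:
Atp5g1 (chr11:96075632-96075751): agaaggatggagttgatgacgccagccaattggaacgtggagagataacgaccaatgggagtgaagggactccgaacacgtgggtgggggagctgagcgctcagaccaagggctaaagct
Atp5g2 (chr15:102671048-102671167): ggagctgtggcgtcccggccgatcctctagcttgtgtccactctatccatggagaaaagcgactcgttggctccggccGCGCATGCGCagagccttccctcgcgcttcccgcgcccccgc
Atp5g3 (chr2:73911327-73911446): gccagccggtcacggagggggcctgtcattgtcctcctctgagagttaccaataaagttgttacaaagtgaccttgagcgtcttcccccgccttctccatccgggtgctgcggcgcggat
Atp5k (chr5:108434400-108434519): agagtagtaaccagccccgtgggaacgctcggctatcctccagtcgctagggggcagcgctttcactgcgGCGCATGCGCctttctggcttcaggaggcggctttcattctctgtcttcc
NRF1 is a known activator of respiratory chain genes. Its motif, searched as GCGCATGC on both strands, occurred in the 120-base windows of Atp5g2 and Atp5k, each time as overlapping matches on both strands, and in neither of the other two. In the longer RefSeq windows (250 bases before to 50 after the start), 70 of the 92 member names were found. NRF1 letters occurred in 10 of these 70 (14.3%), against 3.05% of all 27025 genes in that RefSeq table. For GABP, an ETS family factor, CCGGAAG occurred in 17 (24.3% against 9.93%), and for YY1, AAGATGGC in 10 (14.3% against 3.19%). TATAAA, the TATA box, occurred in 8 (11.4% against 15.7%). The 10 members with the NRF1 letters had a median log2 fold of 0.50 (9 above 0) and the other matched members 0.73. For GABP the medians with and without the letters were 0.79 and 0.65, for YY1 0.95 and 0.65, and for the TATA box 0.96 and 0.65. Cox7b2 and Cox8b, which had the TATA letters, did not enter the test and are not in these medians. Matches are letters only, not sites of binding. In GENCODE M21 the annotated span of Atp5g3 begins right after its window, whereas those of Atp5g1 and Atp5k begin within theirs, so other annotated starts lie there. The window of Atp5g2 lies wholly inside the annotated span of that gene, which begins farther upstream, at chr15:102672352.

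Most tested subunits had higher mean values in the PV libraries, but none passed the test. All folds are PV minus Drd2 on the log2(FPKM + 1) scale, given with the standard error, and tested by limma with adjustment over all 11478 genes. By that test 0 of 85 members were called (threshold 0.05, smallest adjusted p 0.182, Atp5g1), against 30 of all genes (0.261%), 5 with higher PV (0.0436%) and 25 with higher Drd2 (0.218%). At an unadjusted p under 0.05 stood 20 members with higher PV values (3.02% of all genes did) and 1, Cox6a2, with higher Drd2 values (9.77% of all genes). limma voom on recovered reads also called 0, with 26 at an unadjusted p under 0.05. A fold above 0 was found in 67 of 85 members and in 38.4% of all genes. In 26 members every PV library was above every Drd2 library (5.83% of all genes), and in 3 (Ndufa10, Atp5g2 and Atp5pb) every PV library was below (13.1% of all genes). The median fold of all genes was -0.28, and relative to it the members' median was 0.91, or 0.59 without PV replicate 7.

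The summed level of the 93 members was 21680.2, 40632 and 34073 FPKM in the 3 PV libraries and 22796, 17214 and 18126 in the 3 Drd2 libraries. The groups overlapped, since PV replicate 6 was below Drd2 replicate 1. As a share of all FPKM the members made up 5.49%, 9.07% and 9.26% in PV and 6.29%, 4.90% and 5.11% in Drd2, which also overlapped. As a share of all FPKM outside the mitochondrial DNA genes they made up 7.14%, 13.2% and 10.2% in PV and 6.54%, 5.17% and 5.31% in Drd2, which did not overlap. Mitochondrial DNA genes also made up part of each FPKM total, and their 13 subunit genes summed to 39274, 75591 and 18232 FPKM in PV against 8248, 11751 and 9469.9 in Drd2. PV replicate 7 was the highest library for 54 of the 85 tested members, replicate 8 for 17 and replicate 6 for 1, so the 3 PV libraries did not weigh alike. PV replicate 7 also had the fewest genes at 1 FPKM or more (8610, against 10293 to 12398 in the other 5). Without it 62 of 85 members had a fold above 0 (43.9% of all genes) and 27 did not overlap (12.2% of all genes). Without PV replicate 6, 56 members did not overlap (11.2% of all genes). In these bulk libraries more cells of a type and more RNA per cell cannot be told apart.

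**Figure D1:**
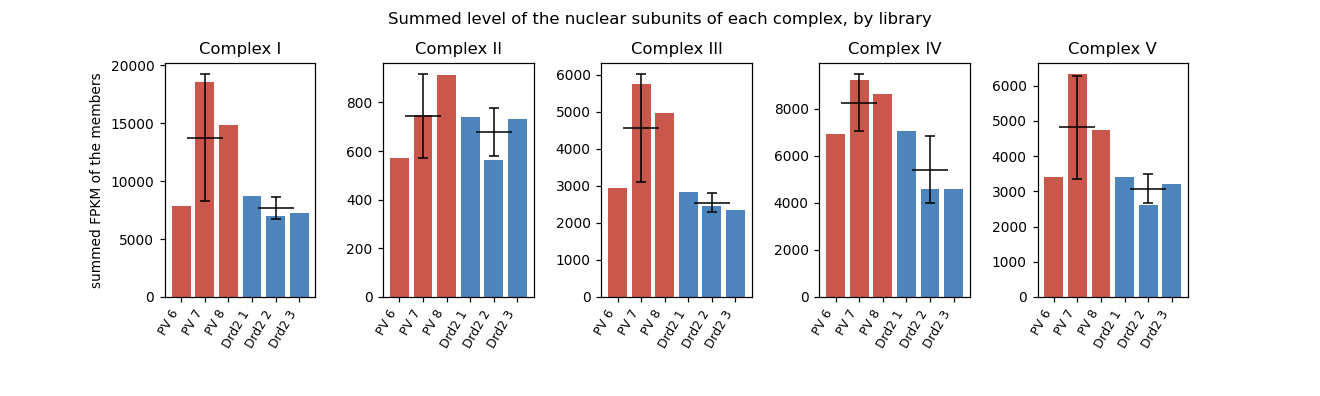
Summed FPKM of the nuclear subunits of each complex (y axis, starting at 0, with its own scale for each complex) in PV replicates 6 to 8 (red bars) and Drd2 replicates 1 to 3 (blue bars), with the group mean and SD (black, n = 3). PV replicates 7 and 8 stand above every Drd2 library in all 5 complexes (in complex II PV replicate 7 by 747 against 740.4), while PV replicate 6 is within or near their range.

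Complex I, the NADH dehydrogenase, had the most members. Of its 40 tested genes 33 had a fold above 0 (38.4% of all genes). In 9 every PV library was above every Drd2 library (5.83% of all genes), and the median fold was 0.67. Relative to all genes it was 0.95, or 0.55 without PV replicate 7. The largest fold was that of Ndufc1, a small accessory subunit of the membrane arm, at 150.0, 666 and 355 FPKM in PV (replicates 6, 7 and 8) and at 115, 87.3 and 82.5 in Drd2 (replicates 1, 2 and 3) (log2 fold 1.80 ± 0.52, limma adjusted p = 0.192). All 3 PV libraries were above the Drd2 range, PV replicate 7 by the most. Ndufa4 (grouped here by its name, although its protein is now placed in complex IV) stood at 349.9, 1162 and 775 against 269, 226 and 239 FPKM (log2 fold 1.48 ± 0.46, limma adjusted p = 0.214), also without overlap. Ndufa3, a membrane arm subunit, was at 473, 528 and 683 against 306, 259 and 202 FPKM (1.14 ± 0.35, limma adjusted p = 0.211). Its PV libraries were closer to each other than those of Ndufc1 and again did not overlap with Drd2. Reads of Ndufa3 and of its opposite-strand neighbour Tfpt, which share 4 exonic bases, cannot be told apart where the counting used no strand.

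Ndufa1, Ndufa2, Ndufa13 and Ndufb10 had the highest mean FPKM of the complex. Ndufa1, essential for assembly of the membrane arm, was at 620.2, 2119 and 1898 against 509.9, 693 and 484 FPKM (1.29 ± 0.50, limma adjusted p = 0.324), and PV replicate 6 lay within the Drd2 range. Ndufa2, of the matrix arm, was at 736, 1188 and 1069.5 against 582, 491 and 536 FPKM (0.87 ± 0.35, limma adjusted p = 0.337), without overlap. Ndufa13, also known as GRIM-19, was at 381, 835 and 763 against 457, 278 and 372 FPKM (0.79 ± 0.41, limma adjusted p = 0.465). Ndufb10 was at 332, 1118 and 759 against 472, 354 and 289.8 FPKM (0.85 ± 0.48, limma adjusted p = 0.497), and in both PV replicate 6 was below Drd2 replicate 1. Without PV replicate 7 the fold of Ndufb10 was 0.46. The lowest fold in complex I was that of Ndufa10, a kinase-like accessory subunit, at 94.0, 81.1 and 90.1 against 109, 132 and 109.8 FPKM (-0.40 ± 0.34, limma adjusted p = 0.669), where all PV libraries were below all Drd2 libraries.

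The 7 nuclear core subunits of complex I, which carry the flavin and iron-sulfur clusters, had folds from -0.12 to 0.31 with a median of -0.01, and all 7 overlapped between the groups. Of the 31 tested accessory genes 28 were above 0 (median fold 0.85). In 9 every PV library was higher (5.83% of all genes) and in 1, Ndufa10, every PV library was lower (13.1% of all genes). Summed, the core genes stood at 973, 1801 and 1696 FPKM in PV and 1576, 1259 and 1402 in Drd2, and the accessory genes at 6848, 16753 and 13116 in PV against 7168, 5722 and 5843 in Drd2. PV replicate 6 was the lowest of the 6 in the core sum and lay inside the Drd2 range in the accessory sum. The ratio within each library, accessory over core, was 7.04, 9.30 and 7.73 in PV against 4.55, 4.55 and 4.17 in Drd2. This ratio does not depend on a library's scaling, and its groups did not overlap. In the same direction, the median log2 level of the accessory genes minus that of the core genes was 0.19, 0.85 and 0.36 in PV and -0.30, -0.37 and -0.36 in Drd2.

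Complex II, succinate dehydrogenase, has 4 subunits, all nuclear, and is also an enzyme of the citric acid cycle. None of the 4 separated the groups, and the median fold was 0.12. Sdha, the flavoprotein, was at 116, 70.6 and 110.5 FPKM in PV (replicates 6, 7 and 8) and at 70.7, 131 and 85.4 in Drd2 (replicates 1, 2 and 3) (0.07 ± 0.40, limma adjusted p = 0.961), with the groups interleaved. Sdhb, which holds the iron-sulfur clusters, was at 148, 428 and 351 against 303, 211 and 239.8 FPKM (0.18 ± 0.45, limma adjusted p = 0.896), and Sdhd, a membrane anchor, at 222, 239.9 and 359.6 against 284, 133 and 281 FPKM (0.28 ± 0.42, limma adjusted p = 0.817). The other anchor, Sdhc, had a fold of -1.25 ± 0.81, limma adjusted p = 0.553, which rested on PV replicate 7: it stood at 86.0, 7.95 and 92.3 against 83.4, 90.2 and 126 FPKM. Without that library the fold was -0.14. The other 5 libraries of Sdhc lay between 83.4 and 126.

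Complex III, cytochrome bc1, had 7 of 9 members with a fold above 0 (38.4% of all genes), and the median fold was 0.79. Its small accessory subunits had the larger folds. Uqcr10 was at 733, 1859 and 1259 FPKM in PV (replicates 6, 7 and 8) and at 518, 484 and 385 in Drd2 (replicates 1, 2 and 3) (1.38 ± 0.41, limma adjusted p = 0.203), with all PV libraries above all Drd2 libraries. Uqcrh, the hinge protein that helps cytochrome c docking, was at 425, 680.2 and 621 against 406, 279 and 304 FPKM (0.79 ± 0.36, limma adjusted p = 0.402), likewise without overlap. Uqcrq was at 187, 517 and 440.5 against 203, 123 and 137 FPKM (1.21 ± 0.46, limma adjusted p = 0.309), Uqcr11 at 705, 1169 and 1410.2 against 715, 541 and 506 FPKM (0.86 ± 0.39, limma adjusted p = 0.399) and Uqcrb at 304, 993 and 359.9 against 351, 219 and 216 FPKM (0.90 ± 0.49, limma adjusted p = 0.486). In these 3 PV replicate 6 was below Drd2 replicate 1. Without PV replicate 7 the fold of Uqcrb was 0.37.

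The 2 nuclear catalytic subunits of complex III had folds below 0. Cyc1, cytochrome c1, was at 171, 46.2 and 93.7 against 144, 216 and 191 FPKM (-0.99 ± 0.49, limma adjusted p = 0.444), lowest in PV replicate 7, and -0.51 without that library. Uqcrfs1, the Rieske iron-sulfur protein, was at 167, 229 and 233 against 222, 346 and 201 FPKM (-0.26 ± 0.37, limma adjusted p = 0.804). Both overlapped. Uqcrc1 and Uqcrc2, large matrix-side subunits without a redox centre, had folds near 0 whose sign changed under TPM scaling: Uqcrc1 stood at 168, 146 and 409.8 against 181, 154 and 277 FPKM (0.13 ± 0.47, limma adjusted p = 0.93) and Uqcrc2 at 87.2, 121 and 138 against 103, 106 and 121 FPKM (0.04 ± 0.36, limma adjusted p = 0.971). The summed ratio of accessory over catalytic members was 7.71, 19.97 and 14.2 in PV and 6.76, 3.39 and 4.97 in Drd2. These sums did not overlap, but the difference of median log2 levels did, with 0.84 in PV replicate 6 and 0.97 in Drd2 replicate 1. Without PV replicate 7 the complex's median fold relative to all genes was 0.54, against 1.07 with it.

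Complex IV, cytochrome c oxidase, takes its catalytic subunits from mitochondrial DNA, so every nuclear member is accessory. Of 15 tested, 13 had a fold above 0 (38.4% of all genes) and 6 had every PV library higher (5.83% of all genes). The median fold was 0.63. Cox7c was at 244, 869 and 380.3 FPKM in PV (replicates 6, 7 and 8) and at 205, 114 and 97.8 in Drd2 (replicates 1, 2 and 3) (1.70 ± 0.52, limma adjusted p = 0.205). Cox6c was at 137, 442 and 214 against 125, 75.1 and 99.1 FPKM (1.26 ± 0.47, limma adjusted p = 0.306) and Cox5b, a zinc-binding matrix subunit, at 466, 666 and 701 against 377, 271 and 201 FPKM (1.13 ± 0.38, limma adjusted p = 0.244). Those 3 did not overlap. The most abundant members, Cox6a1 at 1819.9, 1417 and 2174 against 1763, 944 and 898 FPKM (0.64 ± 0.40, limma adjusted p = 0.542) and Cox8a at 1606, 1141 and 1091 against 1659.7, 1196 and 939 FPKM (0.03 ± 0.38, limma adjusted p = 0.98), did. Cox6b1 was at 1030.1, 1322 and 1321 against 927, 631 and 712 FPKM (0.70 ± 0.35, limma adjusted p = 0.442), without overlap, and Cox4i1, the regulatory subunit 4, at 577, 1219 and 1019 against 750.3, 436 and 599 FPKM (0.62 ± 0.41, limma adjusted p = 0.559), with PV replicate 6 inside the Drd2 range. Cox7b was at 279, 661 and 539 against 335, 217 and 229 FPKM (0.86 ± 0.42, limma adjusted p = 0.436). Without PV replicate 7 the folds of Cox6c and Cox4i1 were 0.81 and 0.40.

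Several complex IV subunits have isoform genes for particular tissues, and 2 of these had the most extreme folds of all members. Cox7a1, the heart and muscle isoform of subunit 7a, was at 9.34, 60.7 and 34.7 FPKM in PV (replicates 6, 7 and 8) and at 3.05, 6.85 and 2.90 in Drd2 (replicates 1, 2 and 3) (2.51 ± 0.72, limma adjusted p = 0.191). The groups did not overlap, yet Cox7a1 made up only 1.44%, 4.77% and 3.53% of the Cox7a1, Cox7a2 and Cox7a2l sum in PV and 0.507%, 1.19% and 0.471% in Drd2. Cox7a2, the common form, was at 524, 859.5 and 731 against 491, 435 and 414 FPKM (0.63 ± 0.35, limma adjusted p = 0.487) without overlap, and Cox7a2l, which joins complexes III and IV, at 114, 351 and 219.8 against 108, 133 and 198 FPKM (0.54 ± 0.47, limma adjusted p = 0.67). Without PV replicate 7 the fold of Cox7a2l was 0.16. Cox6a2, the muscle isoform of subunit 6a, went the other way, listed at 0, 7.54 and 25.1 against 205, 46.4 and 13.9 FPKM (-3.12 ± 1.22, limma adjusted p = 0.331). Its groups overlapped, with PV replicate 8 above Drd2 replicate 3, and Drd2 replicate 1 alone held most of the signal. Leaving out 1 library, the fold ranged from -4.17 (without PV replicate 8) to -1.82 (without PV replicate 6), and it was -5.16 with voom on recovered reads. As a share of the subunit 6a pair, Cox6a2 was 0%, 0.530% and 1.14% in PV and 10.4%, 4.69% and 1.52% in Drd2, which did not overlap. Cox6b2, the testis isoform, was low at 4.09, 17.8 and 0 against 6.85, 3.28 and 5.26 FPKM (-0.38 ± 1.01, limma adjusted p = 0.902).

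The 8 members that did not pass the filter were mostly further isoforms or copies. Cox4i2 was at 0.979, 0 and 0 against 0, 2.62 and 0 FPKM, Cox8b at 2.499 in Drd2 replicate 2 alone, Cox7b2 at 9.83 in Drd2 replicate 3 alone, Cox8c was listed at 0 in all 6 libraries, and Ndufa4l2 at 0.274 in Drd2 replicate 2 alone. The rest were Ndufa11b, Ndufb11b and a second identifier of Atp5o, none above 1.05 in any library. Cox4i1 therefore made up 99.4% to 100% of the subunit 4 pair. Among tested members Ndufs6b, Ndufb4c and Cox6c2 are annotated as processed pseudogenes, copies of Ndufs6, Ndufb4 and Cox6c by name. Their highest value was 10.4 FPKM and their folds were 0.01, 0.05 and 0.10. Reads shared with the parent genes may be split between them.

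**Figure D2:**
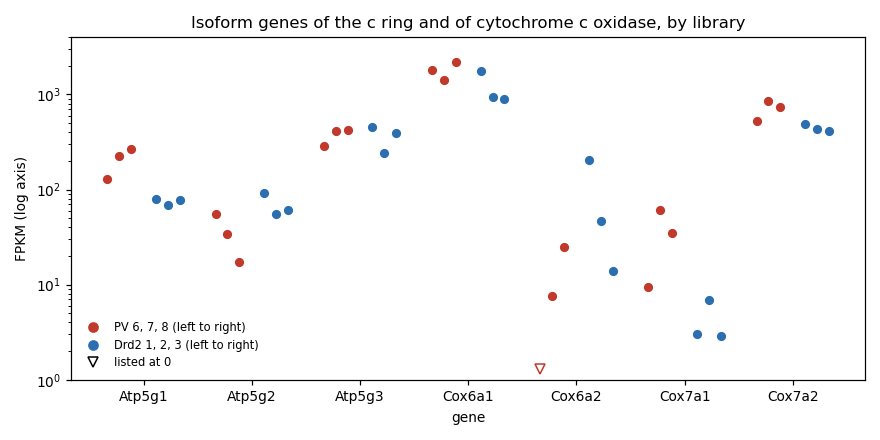
FPKM (log axis) of the c-ring genes and of the subunit 6a and 7a genes, 1 point per library, with the PV libraries in red and the Drd2 libraries in blue, each in the order of their replicate numbers. The open triangle marks Cox6a2 listed at 0 in PV replicate 6. Atp5g1 and Cox7a1 are higher and Atp5g2 lower in every PV library, while Cox6a2 overlaps.

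In complex V, ATP synthase, 11 of 17 tested members had a fold above 0 (38.4% of all genes). In 9 every PV library was higher (5.83% of all genes), and the median fold was 0.66. The smallest p of all members was that of Atp5g1, which codes for subunit c of the rotating membrane ring. Atp5g1 (chr11:96068852-96075670, mm10, minus strand, 4912 bases of merged exons) was at 129, 224 and 266 FPKM in PV (replicates 6, 7 and 8) and at 79.7, 68.1 and 77.5 in Drd2 (replicates 1, 2 and 3). All PV libraries were above all Drd2 libraries, and the Drd2 libraries lay close together (1.38 ± 0.39, limma adjusted p = 0.182). The other c-ring genes, whose mature product is the same, did not share this. Atp5g3 was at 290.4, 413 and 423 against 455, 244 and 391 FPKM (0.08 ± 0.38, limma adjusted p = 0.952), with the groups mixed. Atp5g2 was at 55.0, 34.0 and 17.3 against 91.0, 55.2 and 60.4 FPKM (-1.05 ± 0.50, limma adjusted p = 0.424), and every PV library was below every Drd2 library, PV replicate 6 (55.0) by less than 1 FPKM under Drd2 replicate 2 (55.2). Without PV replicate 8 the fold of Atp5g2 was -0.62.

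As a share of the summed FPKM of the 3 c-ring genes, Atp5g1 was 27.1%, 33.3% and 37.6% in PV and 12.7%, 18.6% and 14.7% in Drd2. The means were 32.7% ± 5.26 and 15.3% ± 2.98 (SD, n = 3 each). Atp5g2 was 11.6%, 5.07% and 2.45% in PV and 14.5%, 15.04% and 11.4% in Drd2, where PV replicate 6 overlapped with Drd2 replicate 3. Atp5g3 was the largest in every library, at 61.3%, 61.6% and 59.9% in PV and 72.7%, 66.4% and 73.9% in Drd2. The shares are per merged exon length, which for Atp5g1 is longer than its principal transcript (596 bases). Its share of transcripts is thus understated in both groups, though not by the same amount. Per principal transcript length, the mean levels in PV were 1697 for Atp5g1, 1148 for Atp5g3 and 135 for Atp5g2, and in Drd2 they were 619, 1109 and 262, so the order of Atp5g1 and Atp5g3 differed between the group means.

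Around the c ring, 8 of the 9 tested accessory members had a fold above 0. Atp5k, subunit e, which helps join ATP synthase into dimers, was at 319.9, 1319 and 641 FPKM in PV (replicates 6, 7 and 8) and at 304, 152 and 146 in Drd2 (replicates 1, 2 and 3) (1.77 ± 0.54, limma adjusted p = 0.21). Atp5md, also called DAPIT, was at 153, 416 and 238 against 134, 83.0 and 48.5 FPKM (1.59 ± 0.50, limma adjusted p = 0.222), and Atp5mpl at 302, 569 and 450.1 against 204, 167 and 202 FPKM (1.16 ± 0.37, limma adjusted p = 0.221). Each had every PV library higher. Atp5h, subunit d of the peripheral stalk, was at 364, 859 and 416 against 347, 248 and 245 FPKM (0.87 ± 0.42, limma adjusted p = 0.427), again without overlap, and had a fold of 0.49 without PV replicate 7. Of the catalytic head, Atp5b, the beta subunit where ATP is made, was at 383, 240.2 and 511 against 338, 326 and 478 FPKM (-0.05 ± 0.39, limma adjusted p = 0.967). Its groups overlapped, and the sign of this fold changed with the scaling. The other head and central stalk genes were Atp5a1, Atp5c1, Atp5d and Atp5e. Of these, named here after their values were seen, Atp5d had 28.5 FPKM in PV replicate 7 and at least 158 in the other 5 libraries, and Atp5e (0.96) had every PV library higher.

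**Figure D3:**
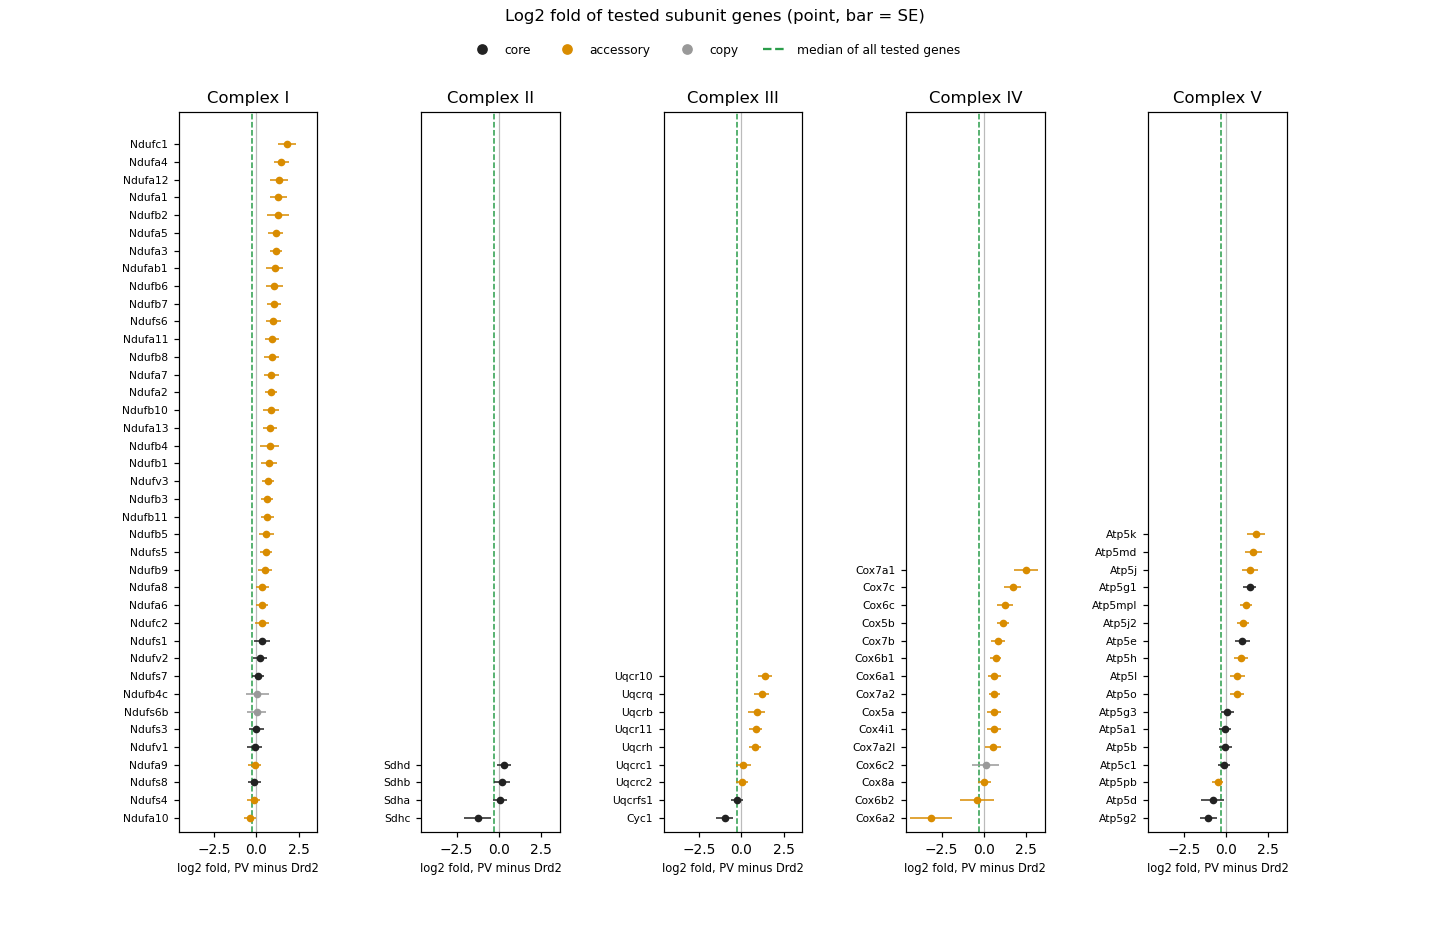
Log2 fold of the tested members, all but 1 of complex I (x axis, PV minus Drd2, bars = SE), by complex, with core subunits in black, accessory subunits in orange and pseudogene copies in grey. The dashed line is the median of all tested genes, -0.28. In complexes I, III and V most accessory genes lie to the right, and most core genes cluster near 0. Core genes farther out are Atp5g1 and Atp5e on the right and Sdhc of complex II, Atp5g2, Cyc1 and Atp5d on the left.

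Split by role over all complexes, core members are those with a redox centre or active site, the head and central stalk of ATP synthase and the c ring, and all others are accessory. The split was made after values were seen and is a description. Of 21 core members 9 had a fold above 0 (median -0.04) and 2 had every PV library higher, Atp5g1 and Atp5e. Of 61 tested accessory members 55 had a fold above 0 (median 0.85) and 24 had every PV library higher. Of all genes 38.4% had a fold above 0 and 5.83% had every PV library higher. For folds above 0, the core count was near the share of all genes. In complexes I, III and V together the accessory sum was 3.72, 6.70 and 4.99 times the core sum in PV and 2.96, 2.66 and 2.40 times in Drd2, without overlap. In complex V alone the ratio was 1.01, 2.32 and 1.29 against 0.846, 0.777 and 0.629. The difference of median log2 levels in complex V overlapped, at -0.50, 0.72 and -0.14 in PV and -0.23, -0.56 and -0.84 in Drd2. Relative to the median of all genes, the accessory median fold was 1.12 and 0.71 without PV replicate 7, and the core median 0.24 and 0.09.

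**Figure D4:**
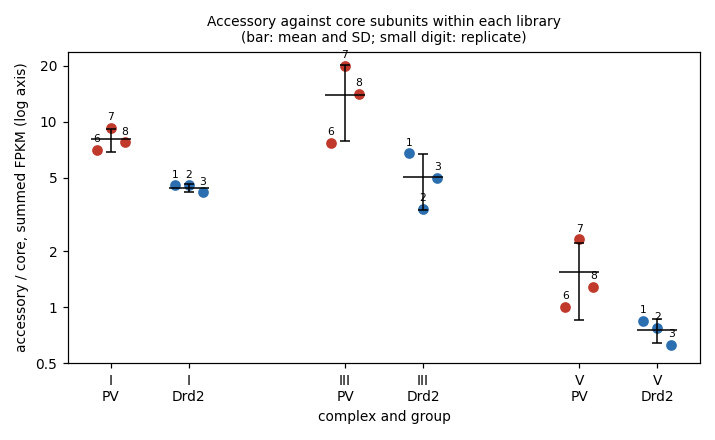
Summed FPKM of accessory members divided by that of core members in each library (y axis, log scale), for complexes I, III and V, with the mean and SD (n = 3) and the replicate number beside each point. The PV points lie above the Drd2 points in each complex, by the smallest gap in complex III (7.71 in PV replicate 6 against 6.76 in Drd2 replicate 1).

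Transcript length moved with this split. The median principal transcript was 652 bases for accessory and 1231 bases for core members, and across 81 members with such a transcript the fold and its length had a Spearman correlation of -0.63. With the longest instead of the shortest principal transcript it was -0.40, and with merged exon length (82 members) -0.22. The shortest was chosen after these values were seen. Among 494 other genes with a mean of at least 100 FPKM the correlation was -0.31. All these points share the same 6 libraries. In the other genes with principal transcripts of up to 600 bases (n = 48) the median fold was 0.18 and 14.6% had every PV library higher. The accessory members of that length (n = 27) had a median fold of 0.99, and 55.6% had every PV library higher. Unlike the other genes, the members here and below were not held to 100 FPKM, which 67 of the 85 tested members reached. The 3 core members of that length, Atp5g1, Atp5g2 and Atp5e, had a median fold of 0.96, and 2 of them had every PV library higher. For lengths over 600 and up to 1000 bases the medians were -0.09 for 130 other genes, 0.68 for 20 accessory members and -0.02 for 4 core members. Every PV library was higher in 5.38%, 40% and 0% of these. For those over 1000 and up to 2000 bases the medians were -0.61 for 214 other genes, 0.57 for 12 accessory and -0.05 for 10 core members. Here every PV library was higher in 3.74%, 8.33% and 0%. The part of transcript length in the folds was not tested.

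**Figure D5:**
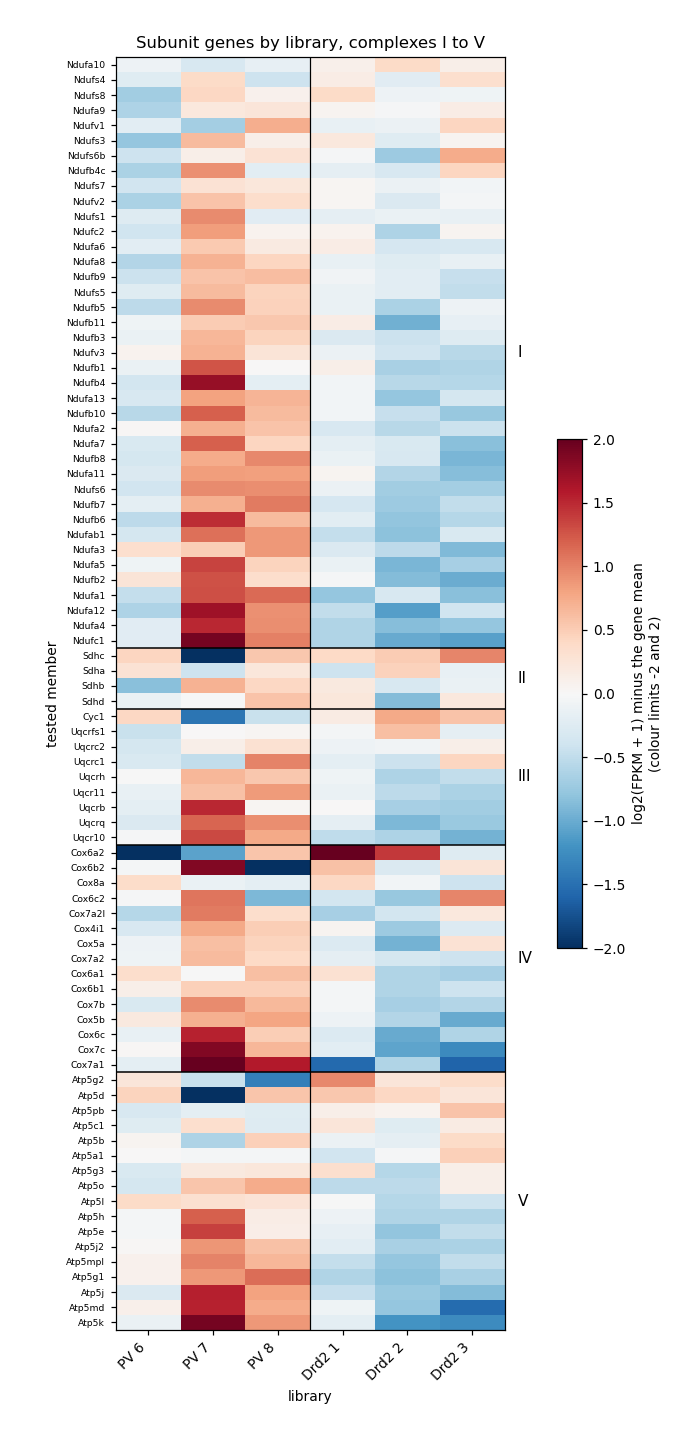
The tested members, all but 1 of complex I (rows, by complex and sorted by fold) in each library (columns), as log2(FPKM + 1) minus the gene's mean, from blue (-2) to red (2). PV replicate 7 is reddest, PV replicate 6 mostly pale, and Drd2 replicates 2 and 3 mostly blue, while Sdhc, Cyc1 and Atp5d are blue in PV replicate 7.

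Levels between members were compared as FPKM rescaled to principal transcript length, as group means. The highest in PV were Ndufa4 (2329), Cox6a1 (2217) and Atp5md (2106), and in Drd2 Cox6a1 (1477), Cox8a (1423) and Cox4i1 (1238). Over all 6 libraries, medians by complex were 433 in I, 196 in II, 667 in III, 744 in IV and 557 in V. Core members had a median of 336 and accessory members one of 572 on this scale.

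Other genes of the pathway were described from lists of the same kind. The 13 subunit genes of mitochondrial DNA had a median fold of 1.48, with 12 above 0 (38.4% of all genes) and 0 called. In 7 every PV library was higher (5.83% of all genes). Of the 12, mt-Co2, mt-Co3, mt-Atp8 and mt-Nd4l had their highest value in Drd2 replicate 3. Those were listed at 198.6 FPKM or less, against at least 2021 for mt-Co1. The smallest p of the 13 was that of mt-Nd6, at 3312, 3001 and 939 against 211, 327 and 100.1 FPKM (3.46 ± 0.59, limma adjusted p = 0.0501). Its exons overlap mt-Nd5 on the opposite strand, so reads that fall in the shared bases may not be separate. How many bases are shared was not measured. Among 43 tested assembly factors, which build the complexes but are not part of them, 23 had a fold above 0 (median 0.05, 0 called). Pet100, a complex IV assembly factor, was at 27.0, 45.9 and 36.6 against 24.3, 8.89 and 8.94 FPKM (1.44 ± 0.53, limma adjusted p = 0.292). Of 17 citric acid cycle enzymes 13 had a fold above 0 (median 0.35, 0 called), led by Dlat of the pyruvate dehydrogenase complex at 23.8, 22.6 and 23.5 against 4.39, 14.2 and 9.66 FPKM (1.34 ± 0.54, limma adjusted p = 0.336). Of 11 carriers and electron shuttles 4 had a fold above 0 (median -0.04, 0 called). Cycs, cytochrome c, was at 96.04, 335 and 245 against 79.3, 54.2 and 98.2 FPKM (1.40 ± 0.51, limma adjusted p = 0.285) and Slc25a4, an ADP/ATP carrier, at 564, 332 and 663 against 832, 808 and 835 FPKM (-0.72 ± 0.37, limma adjusted p = 0.455). The mitochondrial ribosomal proteins had 43 of 77 above 0 (median 0.07) and the cytosolic ones 28 of 78 (median -0.22), with 0 called in both.

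Markers of other cells also differed between the libraries. The 5 blood markers summed to 3002, 3204 and 743 FPKM in PV and 0.336, 12.1 and 0 in Drd2. By limma 3 of the 3 tested, Hba-a1, Hba-a2 and Hbb-bs, were called with PV higher (0.0436% of all genes). Alas2, of the same list, was low at 3.56, 0.466 and 0 against 0, 0.555 and 0 FPKM and did not enter the test. The 10 microglia markers summed to 1393, 1002 and 448 in PV and 23.9, 92.9 and 3689 in Drd2. For 9 oligodendrocyte markers the sums were 301, 320 and 68.3 against 366, 1379 and 74.2, and for 7 astrocyte markers 559, 516 and 537 against 143, 353 and 502. Aldoc made up most of the astrocyte sums, and the other 6 summed to 48.8, 31.6 and 24.8 against 6.70, 41.4 and 16.9, which overlapped. Vascular markers summed to at most 0.891, with Cldn5 at 0 in all 6. The 5 neuron markers summed to 1290.2, 1467 and 1364 in PV and 983, 1187 and 1194 in Drd2. They did not move together, and 3 of the 5 had a fold above 0. Snap25, the largest part of the PV sums, was at 751, 1109 and 766 against 202, 331 and 503 FPKM. Tubb3 went the other way, at 285, 61.7 and 311 against 510, 563 and 428 FPKM. The part of the other cells in the members' values was not tested.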

How the data were processed

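RNA sequencing libraries of 3 PV-positive and 3 Drd2-positive neuron samples were compared. The authors deposited FPKM values. The submitters' processing notes name STAR and the builds mm10, hg38 and GRCh38, with no version or role, and all gene identifiers are of mouse. Which tool counted genes, on which strand and with which annotation is not given in sources used here. Low FPKM values times GENCODE M21 merged exon length fell within 0.01 read of a whole number in 97.9% to 98.8% of values of at most 20 reads, which gave denominators of 23.8 to 33.7 in units of 1e6 fragments. These describe counting error only, since no molecular identifiers mark PCR copies.

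Members were taken by name. Members, lists, tests and most alternatives were chosen with earlier results of these data known, and the core and accessory split, the counts of non-overlapping members and the use of the shortest best-ranked principal transcript of GENCODE M21 were chosen after values were seen. log2(FPKM + 1) was fitted in R 4.3.3 with limma 3.58.1 and its trend option, for the 11478 genes at 1 FPKM or more in 3 or more libraries. P-values were 2-sided and Benjamini-Hochberg adjusted, and the threshold was 0.05. Adding 1 understates folds of weakly expressed genes. The test was also run on simulated data with independent noise, which does not model a library in which many genes move together. No result rests on that run. Medians, ratios and counts over members carry no test. Named were Atp5g1, Ndufc1 and Sdha, all members of complexes II and III, and in complexes I, IV and V the 4 with the highest mean FPKM, the 4 with the smallest p and the lowest fold, besides isoform sets and up to 3 genes of each pathway list by p. Others were named after their values were seen. Alternatives were other pseudocounts, filters, scalings and variance models, voom on recovered reads, and leaving out each library. Promoter sequences are from RefSeq (GRCm38.p6), matched by symbol. In the gene annotation used for positions 94.1% of identifiers were found. A member of complex I is counted in the sums and counts but not reported here by itself.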

Additional observations from a re-analysis of the deposited data

How the results depend on the processing

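No paired analysis was made, because the labels used here give no pairing of libraries between the groups. The replicate numbers (6, 7 and 8 against 1, 2 and 3) do not settle this. Any difference in preparation that follows the groups cannot be told apart from the cell type. No member was called under any of the 17 alternatives, where the smallest adjusted p of a member by limma was 0.0583 (without PV replicate 6) to 0.602 (no filter) and 10 to 46 members had an unadjusted p under 0.05. Over all genes, 30 calls became 4 with a pseudocount of 0.1, 68 with 5, 0 without a filter (1509 at an unadjusted p under 0.05; voom called 22), 11 when rescaled without mitochondrial DNA genes (3 with higher PV and 8 with higher Drd2, against 5 and 25), 68 with quantile normalization (22 and 46), 46 without a trend and 105 with array weights. Leaving out 1 library gave 1 to 56 (56 without PV replicate 6, and 2, 3 and 1 without Drd2 replicates 1, 2 and 3). The median fold of all genes was -0.50 with TPM, -0.12 with median of ratios and 0.05 with quantile normalization. Members with a fold above 0 numbered 58 (TPM) to 76 (median of ratios). Members without overlap and PV higher numbered 19 with TPM (4.23% of all genes), 45 with quantile normalization (10.1%) and 26 to 56 leaving out 1 library (8.51% to 12.2%). Relative to all genes, the complex II median was 0.17 without a filter, and the complex III median was 0.54 to 1.35 leaving out 1 library. Of 714 alternative folds of the 42 named members, 27, in 9 genes, changed sign. With TPM these were Atp5g3 (-0.10), Sdha (-0.11), Uqcrc1 (-0.049), Uqcrc2 (-0.13) and Cox8a (-0.14). Cox8a was at -0.40 with quantile normalization, and Cox6b2 at 0.013 with a pseudocount of 5. Atp5b was at 0.061 without mitochondrial DNA genes, 0.15 with median of ratios, 0.091 with quantile normalization and 0.16 with array weights. Leaving out 1 library, the folds ranged from -0.30 to 0.24 for Atp5b, -0.19 to 0.26 for Atp5g3, -1.40 to 0.72 for Cox6b2, -0.16 to 0.25 for Cox8a, -0.12 to 0.31 for Sdha, -0.12 to 0.64 for Sdhb, -0.079 to 0.47 for Sdhd, -0.34 to 0.41 for Uqcrc1 and -0.10 to 0.23 for Uqcrc2. The causes of these moves were not tested. For 1 kilobase of exon, a single read adds 0.0296 to 0.0420 FPKM depending on the library, so isoforms listed under 1 FPKM rest on few reads.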
